A study of Bos taurus with 8 samples.

Results

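The expression of 10 genes of MHC class II and antigen processing was examined in the rumen papillae of dairy cows on 2 diets. The genes were BOLA-DRA, BOLA-DRB3, BOLA-DQB, BOLA-DMA, BOLA-DMB, BOLA-DOB, CD74, B2M, TAP1 and CTSS. They were chosen for their function and not by a measured value, although earlier results of these data were known. A probe on the array was assigned to a gene when its RefSeq accession belonged to that symbol in the bovine reference, which gave names to 8297 of 21475 probes and to 7787 genes. Of the 10 genes, 5 had such a probe, 1 each, and 4 of these were detected on all 8 arrays (BOLA-DRA, BOLA-DMB, CD74 and B2M). Detected means well above background by the test of the scanner software. BOLA-DQB was not detected on any array, and no probe was matched to BOLA-DRB3, BOLA-DMA, BOLA-DOB, TAP1 or CTSS, which were not analysed here.

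MHC class II molecules are pairs of an alpha and a beta chain that present peptides from endosomes to CD4 T cells, and they are carried mainly by dendritic cells, macrophages and B cells. The invariant chain CD74 occupies their groove until proteases remove it, and the DM pair then exchanges the remaining fragment for antigen peptides. MHC class I molecules consist of a polymorphic heavy chain with B2M, are made by nearly all nucleated cells and present peptides that the proteasome cuts from proteins of the cell itself. Both sets of genes are induced by interferon. In the rumen wall these genes are of interest because a stratified epithelium separates the microbes of the rumen from the immune cells beneath it.

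The arrays came from 4 lactating, ruminally cannulated Holstein cows in a crossover of 2 periods, so that each cow gave 1 sample on each diet. The low-concentrate (LC) diet held 40% concentrate feed and the high-concentrate (HC) diet 70%, all cows had received a diet lower in concentrate beforehand, and papillae were taken on day 21 of a period, 4 h after feeding. Cows 1 and 2 began on LC and cows 3 and 4 on HC, and each period was also 1 slide of 4 arrays, so period and slide cannot be told apart. The question addressed by the comparison was whether HC feeding changes the expression of immune genes in this tissue. Per array, 76.9 to 81.2% of the probes were detected and the median intensity was 92.1 to 132 on LC and 100.8 to 123 on HC.

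The tissue label was checked on marker genes. The keratins KRT14 and KRT6A of stratified epithelium were detected on all 8 arrays, with normalized log2 signals of 17.69 to 18.13 and 17.08 to 17.90. The smooth muscle actin ACTA2 (12.67 to 13.33), the stromal filament VIM (12.35 to 12.94) and immune markers were also measured, whereas TP63, a factor of basal epithelial cells, was not detected. In such bulk tissue, fewer cells of a type and less RNA per cell cannot be told apart.

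None of the 4 measured genes passed the thresholds of a 1.5-fold change and an unadjusted p of 0.05 between diets, which 0.922% of all probes passed. All 4 were nevertheless higher on HC on average, by 0.13 to 0.34 on the log2 scale, and 3 of them (BOLA-DRA, BOLA-DMB and B2M) were higher on HC in 4 of 4 cows. Among the 16030 probes detected on all arrays, 49.9% were higher on HC on average and 6.46% in every cow. The median log2 fold change was 0.23 over the 4 genes and -0.00 over those probes. With limma, 0 of the 4 had an unadjusted p under 0.05, against 3.65% of all probes, and a general linear model without moderation of the variance also gave 0.

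BOLA-DRA (NM_001012677) encodes the class II alpha chain of the DR molecule, the main class II molecule of cattle. On LC its normalized log2 signal was 12.15, 12.15, 11.95 and 12.54 in cows 1 to 4, and on HC it was 12.85, 12.22, 12.22 and 12.87 in the same order. The signal was highest on the HC arrays of cows 4 and 1 and lowest on the LC array of cow 3, and the ranges of the diets overlapped. HC exceeded LC by 0.70, 0.07, 0.27 and 0.32 in cows 1 to 4. The means were 12.20 ± 0.25 on LC and 12.54 ± 0.37 on HC (SD, n = 4). This is a log2 fold change of 0.34 (SE 0.23, limma) or 1.27-fold, with a 95% interval from 0.863 to 1.86-fold, an unadjusted p of 0.183 and an adjusted p of 1.00. The exact two-sided permutation p was 0.171, where the smallest that 4 against 4 arrays can give is 0.0286. Within period 1, HC exceeded LC by 0.40, and within period 2 by 0.29.

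BOLA-DQB (NM_001012676) encodes a beta chain of the DQ molecule, which is polymorphic and varies in copy number between cattle. Its normalized log2 signal was between 0.08 and 1.18 on the 8 arrays, not well above background anywhere, so no fold change is given. The same was found for BOLA-DQA5, a DQ alpha chain, and for BOLA-DYA. BOLA-DYB (NM_001012679), the beta chain of the ruminant DY molecule, was detected on all arrays, at 4.02 to 4.58 on LC and 4.22 to 4.67 on HC. Its log2 fold change was 0.09, with an unadjusted limma p of 0.551.

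CD74 (NM_001034735) encodes the invariant chain that guides class II molecules to endosomes. Its normalized log2 signal on LC was 10.00, 9.99, 9.49 and 10.13 in cows 1 to 4, and on HC 10.56, 9.93, 10.21 and 10.18. The HC array of cow 1 was the highest and the LC array of cow 3 the lowest, and the diets overlapped. HC exceeded LC by 0.56, 0.73 and 0.05 in cows 1, 3 and 4 and was below it in cow 2 (-0.06). Means were 9.90 ± 0.28 and 10.22 ± 0.26 (SD, n = 4), a log2 fold change of 0.32 (SE 0.20) or 1.25-fold (95% interval 0.898 to 1.73), with an unadjusted limma p of 0.153 and an exact permutation p of 0.171. The difference was 0.20 within period 1 and 0.44 within period 2.

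BOLA-DMB (NM_001040481) encodes the beta chain of the DM peptide editor, and its partner BOLA-DMA had no matched probe. On LC the normalized log2 signal was 11.41, 11.35, 11.14 and 11.51 in cows 1 to 4, and on HC 11.61, 11.38, 11.29 and 11.64. The order of the arrays was again led by HC in cows 4 and 1 and closed by LC in cow 3, with overlap between the diets. Every cow had the higher signal on HC, by 0.20, 0.03, 0.14 and 0.14. The means of 11.35 ± 0.15 and 11.48 ± 0.18 (SD, n = 4) gave a log2 fold change of 0.13 (SE 0.14) or 1.09-fold (95% interval 0.868 to 1.38), with an unadjusted limma p of 0.387 and an exact permutation p of 0.286.

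B2M (NM_173893) encodes the light chain shared by all class I molecules. Its normalized log2 signal on LC was 14.90, 14.99, 14.63 and 15.41 in cows 1 to 4, and on HC 14.92, 15.11, 14.73 and 15.77. Both arrays of cow 4 were above those of every other cow and both arrays of cow 3 were below, so that the arrays sorted by cow rather than by diet. HC exceeded LC by 0.02, 0.12, 0.09 and 0.36. The diet means were 14.98 ± 0.32 and 15.13 ± 0.46 (SD, n = 4), a log2 fold change of 0.15 (SE 0.28) or 1.11-fold (95% interval 0.699 to 1.76), with an unadjusted limma p of 0.604 and an exact permutation p of 0.600. In this model without a cow term, the log2 fold change was -0.11 when HC of cow 4 was left out and -0.04 when LC of cow 3 was. Each of these 2 fits kept the other array of that cow, so that the cow was present on 1 diet only. Without both arrays of cow 4 the log2 fold change was 0.08.

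**Figure D1:**
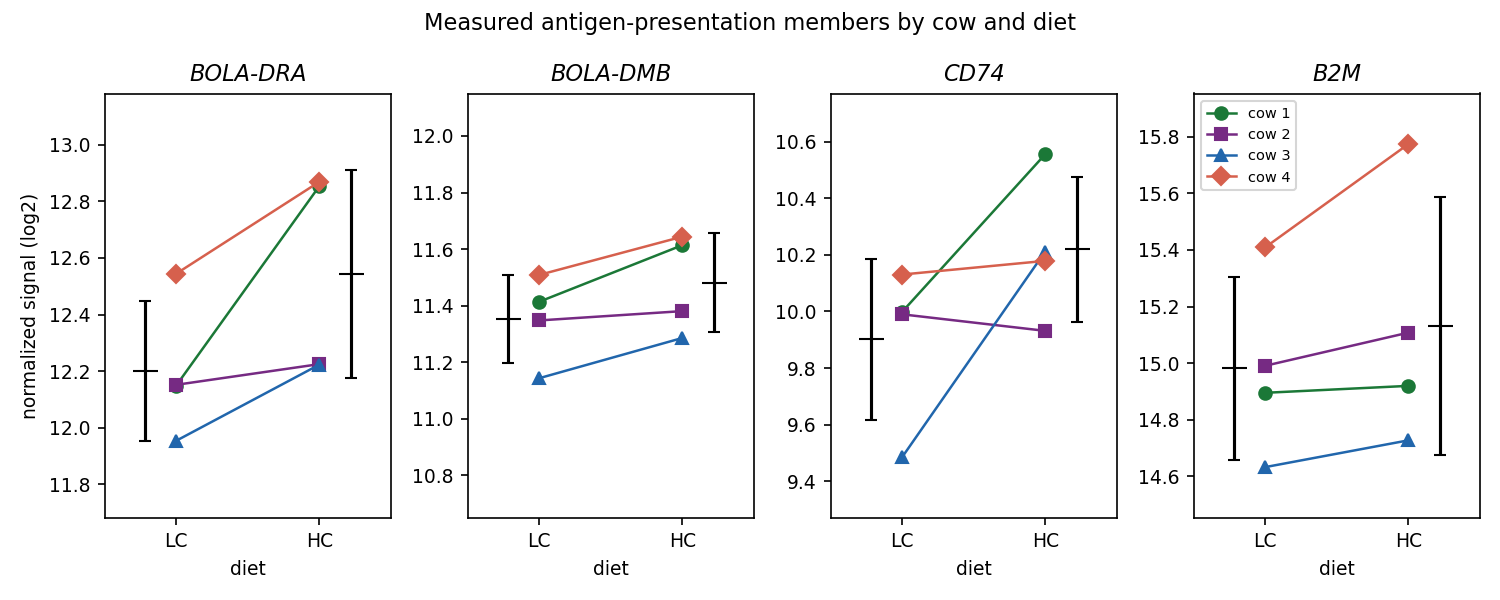
Normalized log2 signal (y axis, each panel with its own range) of BOLA-DRA, BOLA-DMB, CD74 and B2M on the LC and HC diets (x axis), with a line for each of the 4 cows and the mean ± SD of each diet beside the points. The lines rise in all 4 cows for BOLA-DRA, BOLA-DMB and B2M and in 3 of 4 for CD74, and in every panel the ranges of the diets overlap.

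The 4 genes largely shared the arrays of their extreme values, with the lowest on an LC array and the highest on an HC array. All 4 had their lowest value on the LC array of cow 3, as had 16.7% of the 16030 probes detected throughout. BOLA-DRA, BOLA-DMB and B2M had their highest value on the HC array of cow 4, as had 10.5% of those probes, and CD74 on the HC array of cow 1, as had 11.3%. Between periods, the 4 genes differed by -0.08 to 0.05 on the log2 scale (period 2 minus period 1), with unadjusted limma p from 0.736 to 0.938. None passed both thresholds for period, which 3.86% of all probes passed. The interaction of diet and period also separates the cows by the order of their diets, and it had unadjusted p from 0.569 to 0.825 for the 4 genes, so that 0 of 4 were under 0.05, against 10.2% of all probes.

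With BOLA-DRA as the pattern, the 4 genes were also compared by the root-mean-square difference between log2 signals centred on each gene's own mean over the 8 arrays. Among 6465 other named genes, the median of this measure was 0.367, and a gene with the same signal on all arrays would have 0.321. It was 0.182 for BOLA-DMB, with 16 genes closer, 0.199 for CD74, with 38 closer, and 0.265 for B2M, with 359 closer. The 5 closest genes were LOC510988, which the reference also lists as GIMAP7 (0.0714), XDH, the xanthine dehydrogenase (0.123), TAGAP, a GTPase-activating protein of T cells (0.126), TMEM156 (0.128) and PSMB9, a subunit of the immunoproteasome (0.130). These values describe 8 arrays from 4 cows, and the arrays share slides and cows. The likeness to TAP1 could not be computed, since it had no matched probe.

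Outside the 10 genes, 79 genes in 7 lists of antigen presentation were examined. Of these 38 had a matched probe and 34 were detected on every array. On HC 27 of the 34 were higher on average and 7 were lower, with a median log2 fold change of 0.14. As with the genes above, 0 of 34 passed both thresholds, and 0 had an unadjusted p under 0.05 with limma. In all 4 cows, 4 genes were higher on HC (PSMB9, PSME2, CTSB and SPI1) and 1 was lower (NFYA). Of the 16030 probes, 6.46% were higher and 4.88% were lower in every cow.

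Among the proteins that supply and load class I peptides, the 4 measured genes of the immunoproteasome had a median log2 fold change of 0.21. PSMB8 and PSMB9 are inducible proteolytic subunits, and PSME1 and PSME2 form the activator that opens the proteasome. PSME2 (NM_001014889) had log2 signals of 12.31, 12.31, 12.30 and 12.30 on LC in cows 1 to 4 and of 12.48, 12.36, 12.37 and 12.88 on HC. It was the only gene of the 34 whose diets did not overlap, as was found for 1.63% of the 16030 probes. The LC arrays lay within a narrow range and the HC array of cow 4 stood above the other HC arrays. The log2 fold change of PSME2 was 0.22 (limma p 0.142, exact permutation p 0.0286, the smallest possible) and was 0.09 without the HC array of cow 4. PSMB9 had a log2 fold change of 0.25 (limma p 0.150), PSME1 of 0.20 (p 0.144) and PSMB8 of 0.14 (p 0.386). All 4 had their highest signal on the HC array of cow 4, at 10.41 for PSMB8, 10.37 for PSMB9, 12.74 for PSME1 and 12.88 for PSME2. Without that array the log2 fold change was 0.13 for PSMB9, 0.099 for PSME1 and -0.00 for PSMB8.

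The class I peptide loading list had 6 measured genes, 4 higher and 2 lower on HC, with a median log2 fold change of 0.06. PDIA3, an oxidoreductase of the loading complex, had the lowest log2 fold change of the 34 genes (-0.24, limma p 0.466). Its log2 signal was 11.13, 11.14, 10.25 and 10.22 on LC and 10.03, 11.06, 9.82 and 10.88 on HC in cows 1 to 4. It was lower on HC in cows 1, 2 and 3 and higher in cow 4, and the diets overlapped.

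For class II, the list of endosomal proteolysis had 11 measured genes, 8 higher and 3 lower on HC, with a median log2 fold change of 0.10. It holds the cathepsins and legumain, which cut antigens and the invariant chain, and CST3, an inhibitor of cathepsins. CST3 had a log2 fold change of -0.06 (limma p 0.506), with 15.65 to 15.78 on LC and 15.48 to 15.83 on HC. CTSC, a dipeptidyl peptidase, had an unadjusted p of 0.0222 for period, and with CD83 it was 1 of 2 among the 34 genes under 0.05 for period, against 12.3% of all probes.

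Of the regulators, SPI1, the myeloid transcription factor PU.1, had the smallest unadjusted p of the 34 genes for diet. Its log2 signal was 9.82, 9.64, 9.58 and 9.74 on LC and 10.23, 9.97, 9.69 and 10.05 on HC in cows 1 to 4, higher on HC in every cow but with overlap between diets. The log2 fold change was 0.29 (SE 0.13, limma p 0.0619, exact permutation p 0.0857). With cow as a replicate block the limma p of SPI1 was 0.0272 to 0.0290 in 3 such fits, which made it the only one of the 34 genes under 0.05 there, and its change stayed under 1.5-fold. NFYA, a subunit of the factor that binds the Y box of MHC promoters, was lower on HC in every cow (-0.10, limma p 0.376). CIITA, the master regulator of class II genes, and NLRC5, its class I counterpart, had no matched probe.

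All 5 measured genes of T cell costimulation were higher on HC on average, with a median log2 fold change of 0.26. The largest value of the 34 genes was that of CD83, a marker of mature dendritic cells that stabilizes class II molecules at the surface (0.31, limma p 0.127). Its log2 signal was 8.25, 8.29, 8.11 and 8.27 on LC and 9.30, 8.73, 8.34 and 7.79 on HC in cows 1 to 4. The HC arrays of cows 1, 2 and 3 were above all LC arrays, and that of cow 4 was below all of them. The log2 fold change of CD83 was 0.17 without HC of cow 1 and 0.18 without HC of cow 3, and 0.46 without HC of cow 2 (unadjusted limma p 0.0406). CD83 also had an unadjusted p of 0.0499 for period and of 0.0266 for the interaction, with an adjusted p of 0.407 and 0.445.

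**Figure D2:**
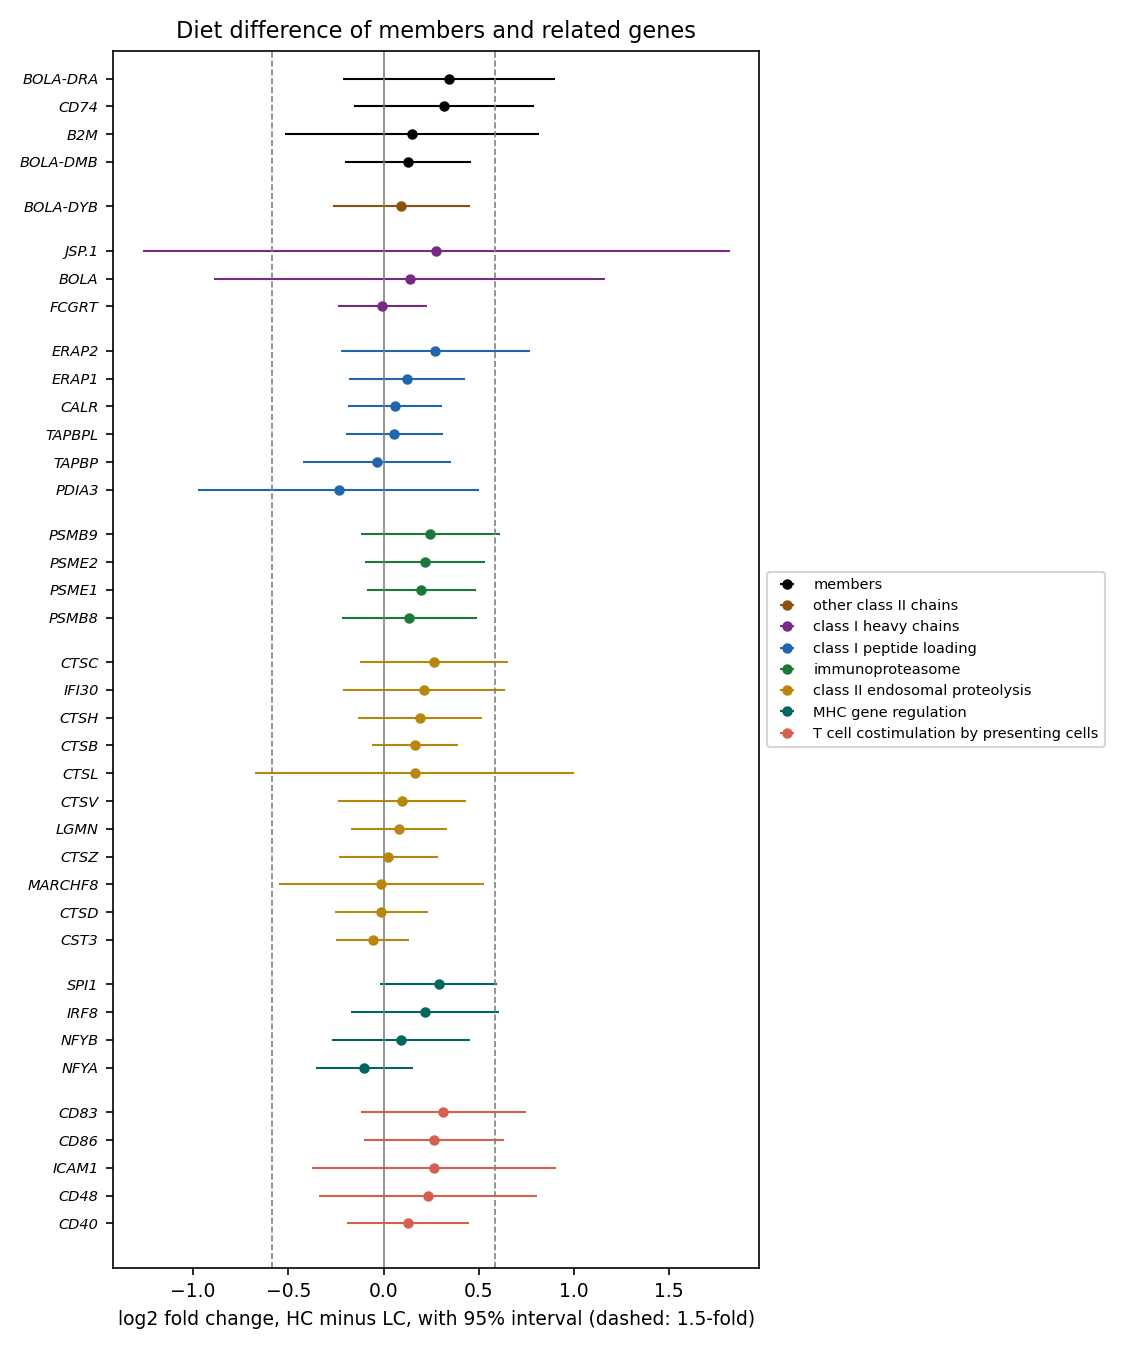
Log2 fold change of HC against LC (x axis) with its 95% interval from limma for the 4 measured genes of the set (black) and 34 other genes of antigen presentation (y axis, coloured by list), with dashed lines at a 1.5-fold change in either direction. Points lie to the right of 0 for all 4 members and for 27 of the 34 other genes, and every interval spans 0.

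Differences between cows were examined beside those between diets. Of the 4 measured members, 1 (B2M) had an unadjusted p under 0.05 for cow in an F test with diet and period in the model, as had 16.3% of all probes, and 0 had an adjusted p under 0.05, as had 0.158%. B2M means over both diets were 14.91, 15.05, 14.68 and 15.59 in cows 1 to 4, a range of 0.91 or 1.88-fold (limma p 0.00735, adjusted p 0.191). The p for cow was 0.0813 for BOLA-DRA, 0.115 for BOLA-DMB and 0.406 for CD74.

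Of the class I heavy chains, BOLA (NM_001038518) had log2 signals of 15.39, 15.67, 14.24 and 15.49 on LC and 15.44, 15.59, 14.33 and 15.98 on HC in cows 1 to 4. Both arrays of cow 3 were lower than all others. The log2 fold change for diet was 0.14 (limma p 0.758), and the p for cow was 0.00140 (adjusted p 0.134). JSP.1 (NM_001040498), another class I heavy chain, had log2 signals of 5.80, 6.05, 7.13 and 9.14 on LC and 6.15, 5.96, 7.35 and 9.77 on HC. Cow 4 was highest, cow 3 intermediate and cows 1 and 2 lowest on both diets, and the means of the cows spanned 11.1-fold. The p for cow was 6.73e-05 (adjusted p 0.0480), the only adjusted p for cow under 0.05 among the 34 genes, while the log2 fold change for diet was 0.28 (limma p 0.678). The adjusted p for cow of JSP.1 was 0.0653 with normexp background correction, 0.0563 in the deposited table and between 0.168 and 0.267 with 1 array left out. FCGRT, the class I-like neonatal Fc receptor and the third gene of this list detected on all arrays, had log2 signals of 11.97 to 12.22, and the means of its cows spanned 1.13-fold (p for cow 0.476). Class I heavy chains form a polymorphic family of near-identical genes, so the signal of these probes cannot be assigned to 1 gene or allele with certainty.

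**Figure D3:**
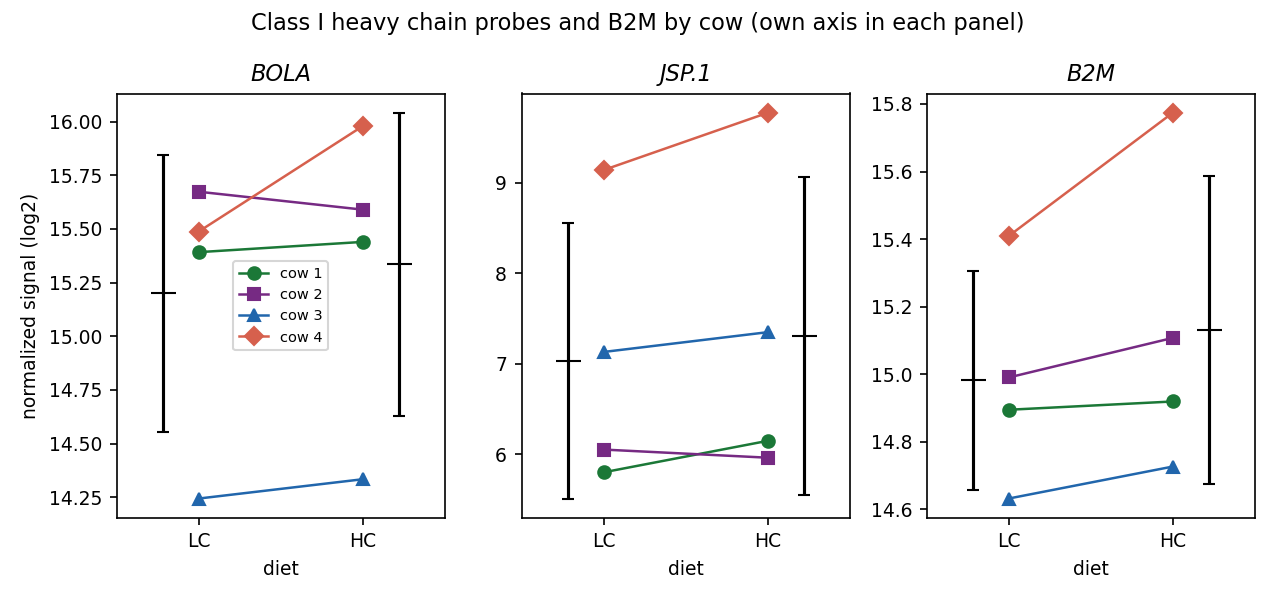
Normalized log2 signal (y axis, each panel with its own range) of the class I heavy chain probes BOLA and JSP.1 and of B2M on the LC and HC diets (x axis), with a line for each cow and the mean ± SD of each diet. The cows keep much of their order on both diets, with cow 3 lowest for BOLA and B2M and cow 4 highest for JSP.1 and B2M.

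Most interferon-stimulated genes and the immunoproteasome genes were highest on the same array. Of 45 interferon-stimulated genes listed, 21 had a matched probe and 18 were detected on every array. The mean level of these 18 was 6.94 to 7.70 on LC (log2), 7.06 to 7.48 on the HC arrays of cows 1 to 3 and 9.05 on the HC array of cow 4. All 18 were higher on HC on average and 0 passed both thresholds, while 15 of 18 had their highest signal on the HC array of cow 4. ISG15, a ubiquitin-like modifier, reached a log2 signal of 13.57 there, against 7.15 to 10.32 on LC and 7.72 to 8.75 on the other HC arrays. MX1, an antiviral GTPase, reached 11.20 and HERC6, a ubiquitin ligase, 9.05. B2M and BOLA were also highest on this array, BOLA-DRA and BOLA-DMB were about as high on the HC array of cow 1, and CD74 was higher there. Without both arrays of cow 4 the log2 fold changes were 0.33 for BOLA-DRA, 0.13 for BOLA-DMB, 0.49 for CD74 and 0.08 for B2M.

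**Figure D4:**
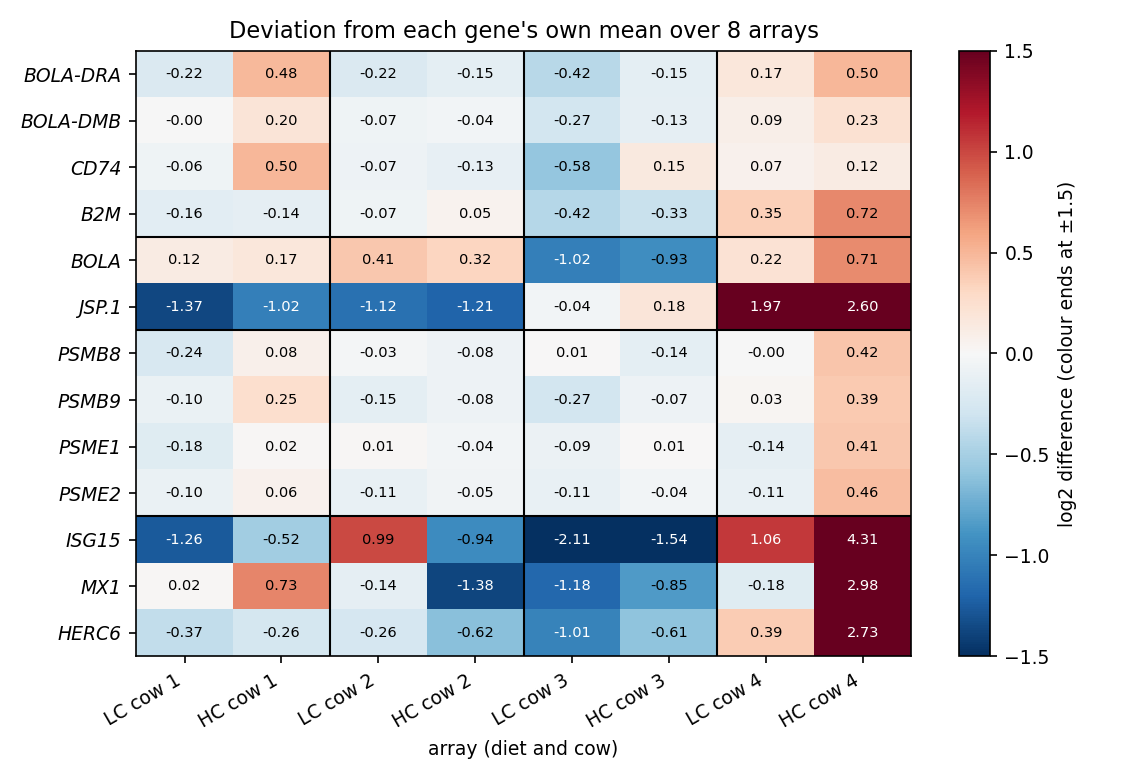
Difference between the log2 signal on each array (x axis, by cow and diet) and the gene's own mean over the 8 arrays for 4 members, 2 class I heavy chains, 4 genes of the immunoproteasome and 3 interferon-stimulated genes (y axis). Red marks values above and blue values below the mean, and the colours end at ±1.5 while the printed numbers do not. The HC array of cow 4 is the highest for all 3 interferon-stimulated genes and all 4 immunoproteasome genes, and for the members the HC array of cow 1 is high for BOLA-DRA and CD74 as well.

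Markers of the cells that carry class II molecules were set beside the members. Of 102 genes in 7 lists of cell type markers, 58 had a matched probe and 47 were detected on every array. The 6 measured macrophage markers, among them C1QA, a complement component, and CD14, a receptor of bacterial lipopolysaccharide, were all higher on HC on average (median 0.19), with 0 below an unadjusted p of 0.05. All 6 were highest on the HC array of cow 1. Their mean level was 7.71 to 8.06 on LC and 7.92 to 8.59 on HC. LAPTM5, a lysosomal protein of leukocytes in general, had log2 signals of 10.39 to 10.60 on LC and 10.49 to 10.84 on HC, with the HC array of cow 1 highest and overlap between the diets.

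Of 7 dendritic and Langerhans cell markers with a matched probe, 4 were detected on every array, and LY75, an endocytic receptor, on none. The 2 brightest were LAMP3, with 14.32 to 15.21 on LC and HC together, and EPCAM, which epithelial cells also express. LAMP3 was near the level of B2M and far above that of LAPTM5, and which cells gave its signal was not tested. The mean level of the 4 genes, which includes LAMP3 and EPCAM, was 9.08 to 9.73 on LC and 9.58 to 10.30 on HC. CCL22, a chemokine of mature dendritic cells and macrophages, was the only one of the 47 markers past both thresholds for diet. Of all probes, 0.922% passed them. CCL22 was named after its values were seen. Its log2 signal was 5.27, 5.30, 4.85 and 5.67 on LC and 7.22, 6.48, 5.65 and 5.62 on HC in cows 1 to 4. It was higher on HC in cows 1, 2 and 3 and not in cow 4, the diets overlapped, and the log2 fold change was 0.97 (limma p 0.00547, adjusted p 1.00, exact permutation p 0.0857). With normexp background correction the log2 fold change was 0.41 and no longer past both thresholds. CCL22 also passed both thresholds for period, as did 3.86% of all probes. HC exceeded LC by 0.35 within period 1 and by 1.59 within period 2.

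The 7 measured T cell markers, with CD4 and CD3G the brightest, had a mean level of 8.10 to 8.28 on LC and 7.92 to 8.28 on HC and a median log2 fold change of -0.00, and CD28 was not detected. The 4 measured B cell markers, with BLNK and CD79A the brightest, had 7.69 to 8.15 on LC and 7.66 to 7.998 on HC, and POU2AF1 was not detected. Epithelial markers had a mean level of 14.83 to 15.31 on LC and 14.86 to 15.40 on HC and stromal and muscle markers of 11.35 to 11.63 and 11.42 to 11.63. The part of these cell types, and of the interferon-stimulated genes, in the values of the members was not tested.

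**Figure D5:**
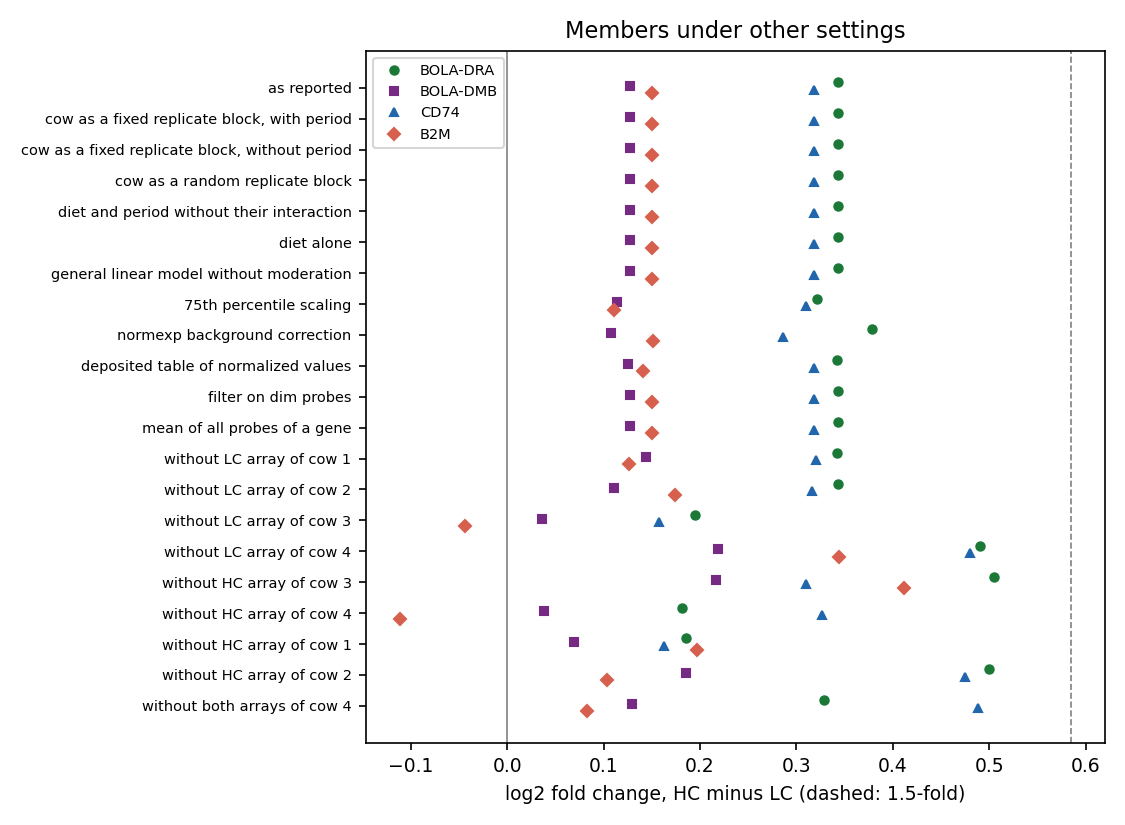
Log2 fold change of HC against LC (x axis) of the 4 measured members as reported and under 20 alternatives of normalization, model and samples (y axis), with the dashed line at a 1.5-fold change. BOLA-DRA, BOLA-DMB and CD74 stay above 0 throughout and below 1.5-fold, while B2M lies below 0 when LC of cow 3 (-0.04) or HC of cow 4 (-0.11) is left out. Alternatives that changed only the model, filtered dim probes or averaged the probes of a gene could not move the points.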

How the data were processed

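Total RNA of rumen papillae from 4 cows on each of 2 diets was measured on 8 single-colour Agilent bovine arrays. The authors deposited each array's output of Feature Extraction 10.7.3.1, in which the intensity of every spot was background-subtracted but the arrays were not yet normalized to each other. A further table that the authors deposited holds quantile-normalized log2 values, used here as an alternative. In it, the columns named for cows 1 and 2 matched each other's arrays on both diets (Pearson r across probes 0.998), which affects only the names of these cows, and for the 4 measured members its values then differed from those used here by at most 0.02.

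From the intensities, control and outlier spots were left out, log2 values were quantile-normalized (limma 3.58.1 under R 4.3.3), and each of 21475 probes got the mean of its spots. A probe counted as detected on an array when all its spots were well above background there. Genes were named through the RefSeq accession of the probe and the gene table of the reference, and the brightest probe of a gene was used. No coordinates are given, since the annotation of the array and the reference are of different builds, and no probe, transcript or protein sequence was used here. Precision is limited by how few arrays there are.

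The limma model held diet, period and the product of both, as the study's model does, and was fitted to all probes with Benjamini-Hochberg adjustment over all probes. The diet coefficient is the mean of the differences within the 2 periods. Differences between cows were tested with an F test on the cow terms beside diet and period. Exact permutation tests used scipy 1.17.1 and treated the arrays of the diets as independent, without pairing by cow. The limma model as reported had no cow term either. Samples of one cow were paired by the labels for the differences within cows, the F test and the fits with cow as a replicate block. Deviations from the diet mean correlated between the arrays of 1 cow at r = 0.285, 0.298, 0.467 and 0.113 in cows 1 to 4 across probes, and at -0.237 to 0.185 between cows.

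The members and gene lists were chosen with earlier results of these data known. Named in the text are all members, in each direction the 3 genes of the presentation lists with the largest mean difference and any past both thresholds, the 3 interferon-stimulated genes with the widest range, the 2 brightest of each list of cell type markers and undetected markers, and the 5 genes closest to BOLA-DRA. BOLA, BOLA-DYB, PSMB8, PSMB9, PSME1, PSME2, CTSB, CTSC, CCL22, IFIT3, OAS1Z and OAS2 were named beside this rule, once their values were known. The mean level of the list of general leukocyte markers is not reported here.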

Additional observations from a re-analysis of the deposited data

Results flagged for a closer look

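In 19 genes named in the report, 38 groups of 4 arrays were checked for a single array far from the other 3 of its diet, and 4 such arrays were found, where chance gives about 1 in 20 groups. Of the members, none had such an array. In the immunoproteasome, PSMB8 on the LC array of cow 1 was at a log2 signal of 9.75, with the nearest LC array at 9.96, and PSME1 on the HC array of cow 4 was at 12.74, with the nearest HC array at 12.34. Of the interferon-stimulated genes, MX1 on the LC array of cow 3 was at 7.04, with the nearest at 8.05, and HERC6 on the HC array of cow 4 was at 9.05, with the nearest at 6.05.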

How the results depend on the processing

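The number of members changed with diet was 0 under all 20 alternatives, as was the number changed among the 34 other presentation genes, and the number changed with period was 0 wherever it was computed. Over all probes, 198 passed both thresholds for diet as reported, between 8 with normexp background correction and 589 without both arrays of cow 4. BOLA-DRA, BOLA-DMB and CD74 were higher on HC under all 20, with log2 fold changes of 0.18 to 0.50, 0.04 to 0.22 and 0.16 to 0.49. Alternatives that changed only the model, filtered dim probes or averaged the probes of a gene could not change these values. The design is balanced and each member had 1 probe. A paired fit with cow as a fixed replicate block and period left the log2 fold changes of BOLA-DRA, BOLA-DMB, CD74 and B2M at 0.34, 0.13, 0.32 and 0.15. Their SEs were smaller, at 0.13, 0.086, 0.17 and 0.094, against 0.23, 0.14, 0.20 and 0.28 without a cow term. The unadjusted limma p in the paired fit was 0.0578, 0.204, 0.136 and 0.179 in the same order. The p of BOLA-DRA was 0.0445 in the block without period, and that of CD74 was 0.0416 without the LC array of cow 4. The block changed no call of a member. Of the 34 other genes, 0 had an unadjusted p under 0.05 as reported, 1 in each block fit (SPI1), 1 in the general linear model without moderation (CST3, p 0.0498), and 0 to 4 with 1 array left out. With 1 array left out, the log2 fold change ranged from -0.11 to 0.41 for B2M, -0.33 to 0.88 for JSP.1, -0.50 to 0.027 for PDIA3, -0.27 to 0.55 for BOLA and -0.0044 to 0.28 for PSMB8, so that these 5 genes changed sign. B2M, BOLA and JSP.1 did so when LC of cow 3 (-0.04, -0.17 and -0.22) or HC of cow 4 (-0.11, -0.27 and -0.33) was missing, and PDIA3 when HC of cow 3 (0.027) or HC of cow 1 (0.021) was. These fits had no cow term, so the cow that lost an array was present on 1 diet only. Without both arrays of cow 4 the log2 fold change was 0.08 for B2M, 0.04 for BOLA, 0.17 for JSP.1 and -0.51 for PDIA3. PSMB8 had -0.0077 without both arrays of cow 4, an alternative chosen after seeing the data, as were those of the cow test. The number of members that differed between cows, 1 as reported, was 2 with normexp background correction (BOLA-DMB, p 0.0106) and ranged from 1 to 2 with 1 array left out, the second gene being BOLA-DRA (p 0.0368) when LC of cow 1 or LC of cow 2 was missing. The causes were not tested. With 4 arrays a diet and no cow term, the intervals of the members reached 1.38 to 1.86-fold. In that model, changes up to that size could not be told from none. Intervals are not given for the paired fit, whose SEs were smaller. For the genes without a matched probe or not well above background, nothing can be said.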

Other observations

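Of the 34 presentation genes detected on all arrays, 8 had an unadjusted p under 0.05 for the interaction of diet and period, which 10.2% of all probes had, and 0 an adjusted p under 0.05. For JSP.1, HC exceeded LC by 2.63 within period 1 and was below it within period 2 (-2.08, log2), in a comparison of different cows within each period, while within cows the difference was -0.09 to 0.63 (interaction p 0.00937, adjusted p 0.369). CST3 had 0.15 within period 1 and -0.26 within period 2.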
